A study of Mus musculus with 9 samples.

Results

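The mitochondrial biogenesis regulators examined here were 9 genes, Ppargc1b, Esrra, Nrf1, Gabpa, Tfam, Tfb2m, Polg, Polrmt and Twnk, out of 56691 genes in the expression table. They were picked by gene symbol for their known role, as PGC-1 beta, its nuclear partners and the factors that copy and transcribe mitochondrial DNA. All 9 were tested, and they were among 11995 genes that reached an FPKM of 1 in 3 or more libraries.

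The libraries came from RAW264.7, a mouse macrophage cell line that turns into bone-resorbing osteoclasts when given RANKL, the cytokine that drives osteoclast formation. Control cells received no RANKL, a second group received RANKL, and the group named RANKL + UD received RANKL together with uridine (UD), a pyrimidine nucleoside. Each group held 3 libraries, described as biological replicates, and all RNA was taken after 3 days of culture. No group received uridine without RANKL, so every effect of uridine was read in cells that also received RANKL.

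Mitochondria carry a small circular genome of their own, and most of their proteins are encoded in the nucleus. PGC-1 coactivators bind no DNA themselves and act through transcription factors such as ERR alpha, NRF1 and the GABP complex, which switch on nuclear genes for respiration and for the upkeep of mitochondrial DNA. TFAM packages that genome and, with TFB2M, starts its transcription by the RNA polymerase POLRMT, while the polymerase POLG and the helicase Twinkle replicate it. Osteoclasts are rich in mitochondria, and PGC-1 beta is the member of the family known for a role in osteoclast mitochondrial biogenesis.

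Total counts ran from 15951800 to 19746862 per library, with a median of 19182637. Levels are given as TMM-scaled FPKM, the deposited FPKM (counts over exonic length and library total) with the total rescaled by edgeR's TMM factor, and they can be compared between genes. TMM factors were 0.959 to 0.962 in the RANKL libraries and 1.01 to 1.03 in the other 6, and leaving them out moved the median log2 fold change of all tested genes by -0.0883 in RANKL against control and by 0.0864 in RANKL + UD against RANKL. With total counts alone, the share of called genes that were higher went from 47.5% to 36.8% in the first comparison and from 48.0% to 66.2% in the second. The summed level of 9 osteoclast marker genes was 45.9 to 48.8 in control libraries, 2754.2 to 2962.0 with RANKL and 1625.5 to 1679.8 with RANKL + UD. That of 8 macrophage markers was 9136.9 to 9758.6, 2593.4 to 2856.4 and 2147.9 to 2255.2. Most of the macrophage sum was Lyz2, with means of 7835.3, 1490.0 and 1260.3, and not every marker followed it. Cd68 had a mean of 538 in control and 814 with RANKL, and Adgre1 rose from 10.5 with RANKL to 12.3 with RANKL + UD. Of 10 markers of other cell types none passed the filter, their sum was at most 1.12, and Cd3e and Ly6g, among others, had no count in any library. Osteoclast and macrophage markers thus differed between the same groups in which the regulators are compared next, although not every regulator differed. The part of these marker shifts in the results for the regulators was not tested. In bulk RNA, fewer cells of one type and less RNA per cell cannot be told apart.

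RefSeq promoter windows on GRCm38.p6, 250 bases before and 50 after the gene start, were found for 8 of the 9 regulators, 10 windows in all. They were searched on both strands for 3 motifs. The first was CCGGAAG, a form of the site bound by ETS factors including GABP, called the ETS core here. The others were the NRF1 motif (GCGCA, any base, then GCGC) and TCAAGGTCA, an extended site of ERR factors. The ETS core was present in 5 of the 10 windows, those of 5 genes, against 8.86% of all 32851 promoter windows of that length. The NRF1 motif was present in 1 of the 10 windows, that of Polrmt, in 2 overlapping matches, against 4.60% of all windows, and the ERR site in 0 of the 10, against 0.423%. The 250 bases before the start are given for the 3 regulators that were lower with RANKL + UD than with RANKL, Gabpa, Twnk and Tfb2m, and for Tfam, which has the ETS core and was not called in any comparison. Capitals mark the ETS core on either strand.
Gabpa, chr16:84834874-84835123, plus strand: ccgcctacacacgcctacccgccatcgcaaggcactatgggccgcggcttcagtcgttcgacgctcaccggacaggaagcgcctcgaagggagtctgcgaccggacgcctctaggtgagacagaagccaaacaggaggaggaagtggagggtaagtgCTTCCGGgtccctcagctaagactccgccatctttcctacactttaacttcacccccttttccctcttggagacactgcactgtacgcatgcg
Twnk (second of 2 windows), chr19:45006308-45006557, plus strand: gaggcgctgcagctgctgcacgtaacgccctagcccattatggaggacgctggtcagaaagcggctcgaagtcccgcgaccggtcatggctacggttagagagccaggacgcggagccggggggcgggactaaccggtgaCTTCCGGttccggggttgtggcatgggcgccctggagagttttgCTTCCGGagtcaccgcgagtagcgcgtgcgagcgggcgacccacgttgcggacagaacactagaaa
Tfb2m, chr1:179546277-179546526, minus strand: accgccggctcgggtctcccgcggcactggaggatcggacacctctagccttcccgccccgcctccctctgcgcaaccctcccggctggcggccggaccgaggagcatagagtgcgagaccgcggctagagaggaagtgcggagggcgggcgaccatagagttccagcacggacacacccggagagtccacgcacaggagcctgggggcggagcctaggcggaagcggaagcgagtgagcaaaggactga
Tfam, chr10:71238045-71238294, minus strand: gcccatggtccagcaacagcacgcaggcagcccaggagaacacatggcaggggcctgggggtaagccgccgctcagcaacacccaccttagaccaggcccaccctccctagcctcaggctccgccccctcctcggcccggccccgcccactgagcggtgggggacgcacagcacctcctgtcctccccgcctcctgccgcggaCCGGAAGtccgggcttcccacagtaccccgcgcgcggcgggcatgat
Counted with the gene start as 0, the core lay at -93 to -87 in Gabpa, at -110 to -104 and -66 to -60 in Twnk, and at -47 to -41 in Tfam. The windows of Polg and Polrmt held it at -38 to -32 and -43 to -37. The Tfb2m window held none of the 3 motifs in these letters. It did hold the shorter GGAAG without CC before it, and shorter forms of the ETS site were not searched for in any window. Genes with the core were thus found both among those called with uridine, Gabpa and Twnk, and among those not called, Tfam, Polg and Polrmt. A match to a motif describes the letters of the window and no binding was measured.

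RANKL against control asked which regulators differ between macrophages and cells after 3 days on the osteoclast path. Ppargc1b, Tfb2m and Twnk were higher with RANKL, Nrf1 was lower by a small margin, and Esrra, Gabpa, Tfam, Polg and Polrmt did not pass the test. By edgeR's quasi-likelihood test, adjusted over all tested genes by the Benjamini-Hochberg method, 3 regulators were called higher and 1 lower, 4 of 9, where 57.6% of all 11995 genes were called (27.3% higher and 30.2% lower). The libraries of both groups did not overlap for 5 of the 9, against 60.8% of all genes. The median log2 fold change of the 9 was 0.15, beside -0.027 for all tested genes, and their median absolute log2 fold change was 0.19, beside 0.33. The 4 called in either direction and the 5 without overlap were thus below the share for all genes, and the 3 called higher were near it.

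Adding uridine to RANKL asked which of these levels differ when osteoclast formation is induced in its presence. Gabpa, Tfb2m and Twnk were lower with RANKL + UD than with RANKL alone, at 0.859, 0.867 and 0.792 times the RANKL level, and Ppargc1b was not called. edgeR's test called 3 of the 9 lower and 0 higher, where 38.8% of all genes were called (18.6% higher and 20.2% lower). None was higher at an unadjusted p under 0.05 either, and DESeq2 and limma also called 0 higher. Libraries did not overlap for 3 of the 9, against 49.1% of all genes, and the median log2 fold change was 0.01, beside 0.005 for all genes, with a median absolute value of 0.04 beside 0.21. The comparisons share the RANKL libraries, so a gene that happened to be high in those 3 libraries would appear higher against control and lower after uridine. RANKL + UD against control, whose fold changes do not use the RANKL libraries although its estimate of spread does, called 2 of the 9 higher (Ppargc1b and Tfb2m) and 1 lower (Gabpa), where 54.0% of all genes were called (26.7% higher and 27.3% lower). Libraries did not overlap for 4 of the 9 there, against 59.9% of all genes.

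**Figure D1:**
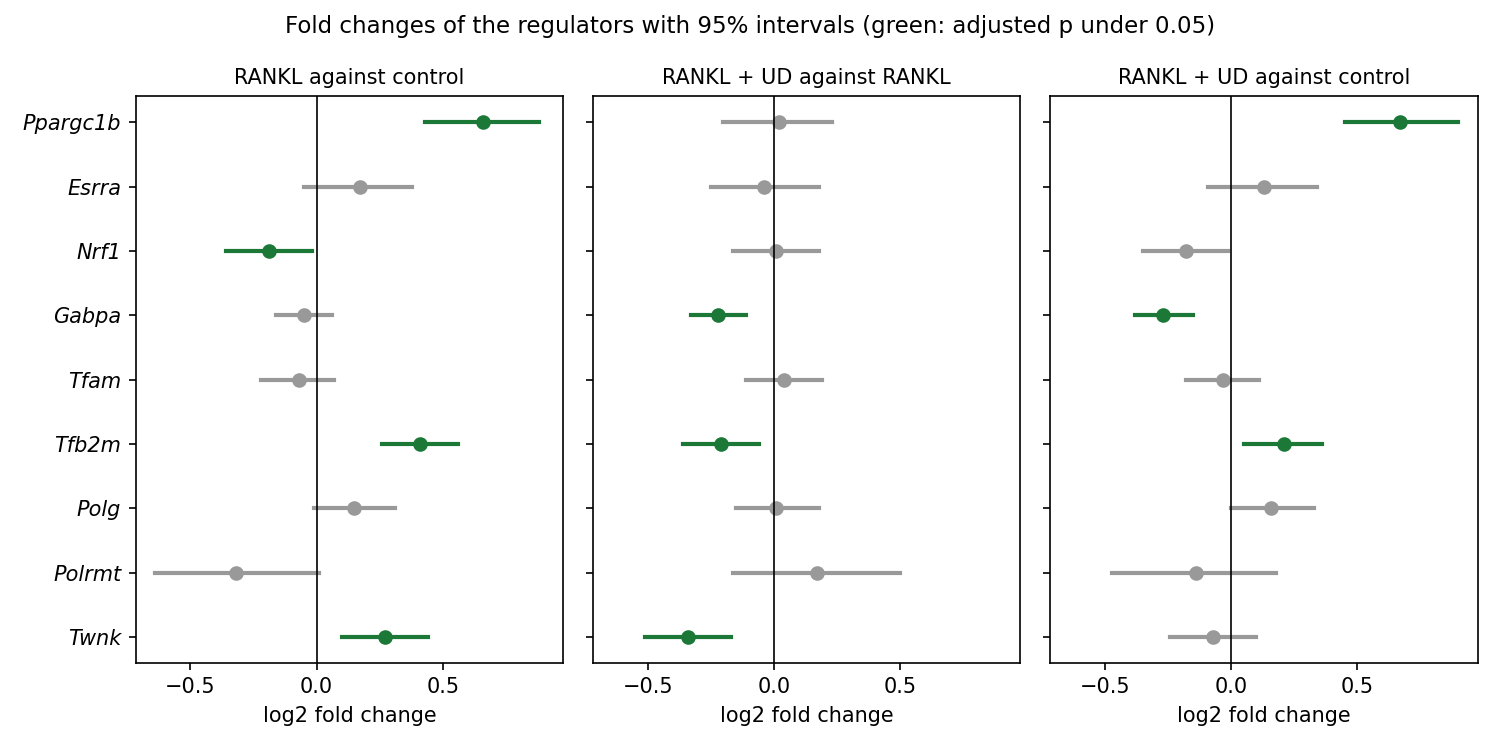
Log2 fold change of each of the 9 regulators (points) with its 95% interval (lines) in the 3 comparisons, from edgeR's quasi-likelihood fit of all 9 libraries, in green where the adjusted p was under 0.05 and in grey otherwise. Ppargc1b is the highest point against control in both RANKL-treated groups, at 0.66 and 0.67, and lies at 0.02 in RANKL + UD against RANKL, where Twnk, Gabpa and Tfb2m lie to the left of 0.

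Ppargc1b, which encodes the coactivator PGC-1 beta (ENSMUSG00000033871, listed in the table at chr18:61431207-61533502, minus strand), showed the largest fold change of the 9 in both comparisons with control. Its level was 3.18, 3.27 and 3.37 TMM-scaled FPKM in the control libraries, 5.86, 5.00 and 4.63 with RANKL, and 4.88, 5.55 and 5.26 with RANKL + UD. Every library that received RANKL, with or without uridine, lay above every control library, and the groups with and without uridine overlapped. The mean went from 3.27 ± 0.095 (SD, n = 3) to 5.16 ± 0.631 (SD, n = 3) with RANKL, a 1.58-fold difference (log2 fold change 0.66, SE 0.11, edgeR adjusted p = 2.16e-05). With RANKL + UD it was 5.23 ± 0.336 (SD, n = 3), 1.6-fold over control (adjusted p = 1.84e-05). Between RANKL + UD and RANKL the log2 difference was 0.02, with a 95% interval from -0.20 to 0.23 (adjusted p = 0.919). Both calls against control were made under all 14 alternatives tried for each, with log2 fold changes of 0.45 to 0.73 and 0.54 to 0.73. Behind these values lay 217 to 442 counts per library. Gene positions here and for the other regulators are those of the table, whose genome build is not settled, and are not to be mixed with the GRCm38.p6 promoter positions.

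Ppargc1a, the gene of the better known coactivator PGC-1 alpha, had at most 1 count in any library. At this depth Ppargc1b was thus the member of that pair that could be measured. Pprc1, the gene of a related coactivator, was also tested and had a higher mean than Ppargc1b in each group. Its mean was 9.9 in control libraries, 8.72 after RANKL alone and 9.36 where uridine was added. Unlike Ppargc1b, Pprc1 was lower in RANKL against control (log2 fold change -0.18, edgeR adjusted p = 0.0322). It was not called in RANKL + UD against RANKL (0.10, adjusted p = 0.279). The 5 tested genes whose log2 level tracked that of Ppargc1b most closely over the 9 libraries were Ammecr1 (Pearson r = 0.983), Stk38l (0.981), Fmn1 (0.980), Mybl1 (0.978) and Arcn1 (0.978). Ammecr1, for example, averaged 5.3 ± 0.318 (SD, n = 3) in control, 7.93 ± 0.811 (SD, n = 3) in RANKL libraries and 8.21 ± 0.437 (SD, n = 3) in RANKL + UD libraries. These r values describe 9 libraries that share 3 treatments, so they mostly restate the group means, and 5 of 11995 genes were picked for them.

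Esrra encodes ERR alpha, the orphan nuclear receptor through which PGC-1 coactivators reach many respiratory genes (ENSMUSG00000024955, chr19:6888345-6899208, minus strand). It measured 5.97, 6.34 and 4.78 in control, 6.25, 6.55 and 6.43 with RANKL, and 6.0, 5.69 and 7.04 with RANKL + UD. All 3 groups overlapped, the lowest value being control 3 and the highest RANKL + UD 3. The log2 fold change was 0.17 in RANKL against control (95% interval -0.05 to 0.38, edgeR adjusted p = 0.182) and -0.04 in RANKL + UD against RANKL (-0.25 to 0.18, adjusted p = 0.815).

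Nrf1, the gene of nuclear respiratory factor 1 (ENSMUSG00000058440, chr6:30047987-30153457, plus strand), is a transcription factor for nuclear respiratory genes and for several factors of mitochondrial DNA. It measured 3.02, 3.05 and 2.73 in control, 2.49, 2.59 and 2.63 with RANKL, and 2.54, 2.58 and 2.65 with RANKL + UD. Both groups given RANKL lay below all control libraries, the nearest being control 3, and overlapped each other. With RANKL it was 0.874 times the control level (log2 fold change -0.19, SE 0.081, edgeR adjusted p = 0.0474), a call close to the threshold. That call was made in 4 of 14 alternatives, with adjusted p from 0.00555 to 0.172. It was lost on leaving out control 1 (-0.17, adjusted p = 0.121), control 2 (-0.16, 0.151), RANKL 1 (-0.17, 0.123), RANKL 2 (-0.20, 0.0837) or RANKL 3 (-0.21, 0.0588). RANKL + UD against control gave -0.18 (adjusted p = 0.0634), and without control 3 it gave -0.23 with an adjusted p of 0.0277. Uridine beside RANKL made a log2 difference of 0.01 (95% interval -0.16 to 0.18).

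Gabpa, which encodes the DNA-binding subunit of the GABP complex, also called nuclear respiratory factor 2 (ENSMUSG00000008976, chr16:84631813-84660667, plus strand), had the highest level of the 9 in every group. Its level was 26.43, 26.15 and 27.66 in control, 26.41, 26.89 and 24.41 with RANKL, and 23.23, 22.40 and 21.09 with RANKL + UD. The 3 libraries with uridine lay below all 6 others, while control and RANKL overlapped. The means were 26.7 ± 0.803 for control, 25.9 ± 1.32 for RANKL and 22.2 ± 1.08 for RANKL + UD (SD, n = 3 each). RANKL + UD was 0.859 times RANKL (log2 fold change -0.22, SE 0.054, edgeR adjusted p = 0.00267) and 0.832 times control (-0.27, SE 0.054, adjusted p = 0.000264), while RANKL against control gave -0.05 (95% interval -0.16 to 0.06, adjusted p = 0.476). The comparison with control was called under all 14 alternatives. The one with RANKL was called under 11 of 14, and on total counts, without TMM factors, it was -0.13 with an adjusted p of 0.0517, while RANKL against control became -0.13 with an adjusted p of 0.0352.

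Exons of Gabpa share 397 bases, 6.98% of its exonic length on GRCm38, with Atp5j on the opposite strand. The libraries kept strand, and the strand setting used in counting is not given in the sources used here. Atp5j, a subunit gene of ATP synthase, did not pass the test in RANKL + UD against RANKL, with a log2 fold change of 0.12 (adjusted p = 0.0826), the opposite sign to Gabpa. Among the partners of Gabpa, Gabpb1 fell by 0.46 on the log2 scale with RANKL (adjusted p = 0.000215) and was at 0.02 in RANKL + UD against RANKL (adjusted p = 0.908), whereas Gabpb2 rose by 0.27 in that comparison (adjusted p = 0.0019). Both encode the subunit that carries the activation domain of the complex.

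**Figure D2:**
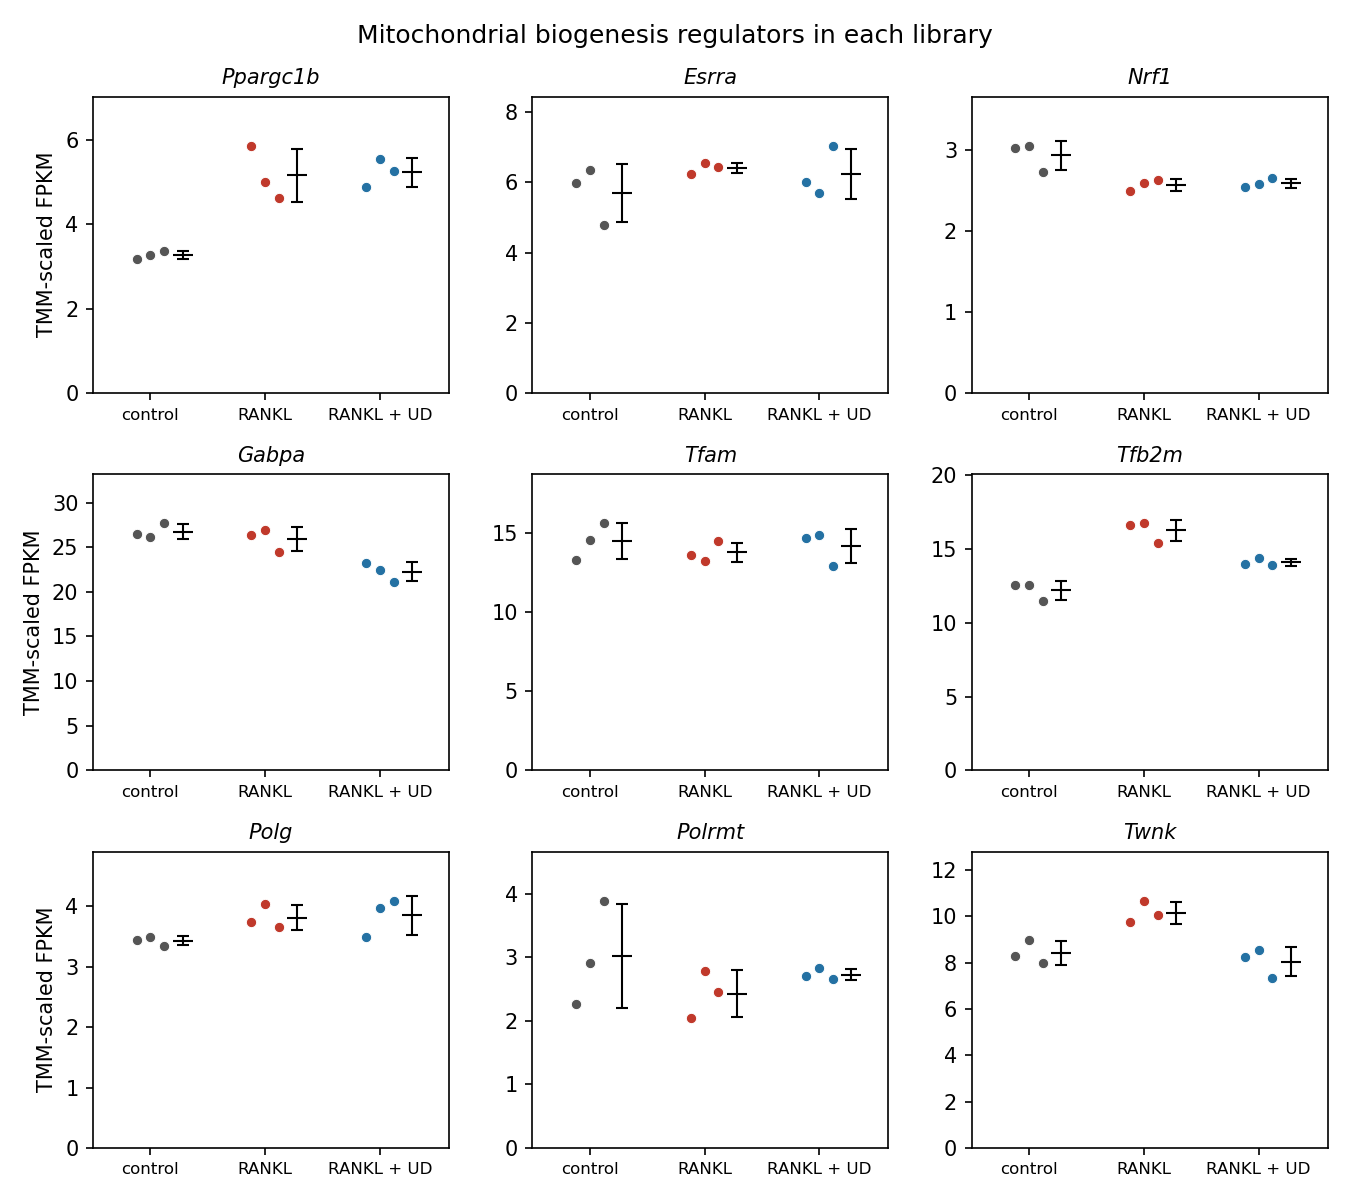
TMM-scaled FPKM of the 9 regulators in each of the 9 libraries (points, by group) with the group mean and SD (bars to the right of the points, n = 3), each panel on its own axis starting at 0. Ppargc1b is at 3.18 to 3.37 in control and at 4.63 to 5.86 in all libraries given RANKL, and Twnk is at 9.73 to 10.66 with RANKL alone and at 8.52 or less with RANKL + UD.

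Tfam encodes the protein that coats mitochondrial DNA and bends its promoters (ENSMUSG00000003923, chr10:71061294-71074110, minus strand), and its mRNA is often read as a mark of mitochondrial biogenesis. Levels were 13.31, 14.55 and 15.59 in control, 13.60, 13.24 and 14.45 with RANKL, and 14.69, 14.84 and 12.91 with RANKL + UD. All groups overlapped and no comparison was called. The 95% intervals of the log2 fold change were -0.22 to 0.07 for RANKL against control and -0.11 to 0.19 for RANKL + UD against RANKL, so a change as large as that of Ppargc1b against control lay outside them.

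Tfb2m, the gene of the transcription factor that opens mitochondrial promoters for the polymerase (ENSMUSG00000026492, chr1:179355620-179373832, minus strand), separated the 3 groups. It stood at 12.56, 12.57 and 11.45 in control, at 16.59, 16.72 and 15.41 with RANKL, and at 13.96, 14.38 and 13.92 with RANKL + UD. No library of one group fell within the range of another, and RANKL + UD lay between the other groups. RANKL was 1.33 times control (log2 fold change 0.41, SE 0.073, edgeR adjusted p = 5.36e-05), a call made under all 14 alternatives. RANKL + UD was 0.867 times RANKL (-0.21, SE 0.072, adjusted p = 0.0277) and 1.15 times control (0.21, SE 0.073, adjusted p = 0.0224).

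The lower level of Tfb2m with uridine was a weaker call, made under 5 of 14 alternatives (adjusted p 0.0195 to 0.199). It was lost without RANKL 1 (-0.19, adjusted p = 0.0802), RANKL 2 (-0.18, 0.0982), RANKL + UD 1 (-0.20, 0.0761), RANKL + UD 2 (-0.22, 0.0503) or RANKL + UD 3 (-0.20, 0.0782), and on total counts it was -0.12 (0.199). RANKL + UD against control was called for Tfb2m in 12 of 14, and was lost without control 3 (0.16, adjusted p = 0.0788) or without RANKL + UD 2 (0.19, 0.0695).

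Polrmt encodes the single RNA polymerase of mitochondria, which also makes the primers for replication (ENSMUSG00000020329, chr10:79571957-79582415, minus strand). It was the least even of the 9 among control libraries, at 2.27, 2.91 and 3.89, against 2.04, 2.78 and 2.46 with RANKL and 2.70, 2.83 and 2.66 with RANKL + UD. All groups overlapped. The log2 fold change of -0.32 in RANKL against control (95% interval -0.64 to 0.01, edgeR adjusted p = 0.0936) passed the test when control 1, the lowest control library, was left out (-0.48, adjusted p = 0.0096), and on total counts (-0.40, adjusted p = 0.0333). Without control 3, the highest control library, it was -0.10 (adjusted p = 0.581), and without RANKL 1 it was -0.21 (adjusted p = 0.322), so its size rests on single libraries. RANKL + UD against RANKL gave 0.17 (-0.16 to 0.50, adjusted p = 0.427).

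Polg, the catalytic subunit gene of the mitochondrial DNA polymerase (ENSMUSG00000039176, chr7:79095979-79116110, minus strand), measured 3.45, 3.49 and 3.35 in control, 3.74, 4.04 and 3.65 with RANKL, and 3.49, 3.97 and 4.09 with RANKL + UD. The RANKL libraries all lay above control, yet the log2 fold change of 0.15 did not pass the test (95% interval -0.01 to 0.31, edgeR adjusted p = 0.106). RANKL + UD against control gave 0.16 (adjusted p = 0.0801), and 0.23 with an adjusted p of 0.0235 without RANKL + UD 1. Polg shares 921 exonic bases, 8.57% of its exons on GRCm38, with Fanci on the opposite strand, whose log2 fold change was -0.72 in RANKL against control (adjusted p = 2.73e-06).

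Twnk, which encodes Twinkle, the helicase that unwinds mitochondrial DNA ahead of the polymerase (ENSMUSG00000025209, chr19:44994102-45001201, plus strand), was higher with RANKL, and its RANKL + UD libraries overlapped control. It measured 8.28, 8.97 and 7.99 in control, 9.73, 10.66 and 10.04 with RANKL, and 8.24, 8.52 and 7.32 with RANKL + UD. The 3 RANKL libraries lay above all others, and control and RANKL + UD overlapped. Means were 8.41 ± 0.503, 10.1 ± 0.474 and 8.03 ± 0.628 (SD, n = 3 each). RANKL was 1.2 times control (log2 fold change 0.27, SE 0.081, edgeR adjusted p = 0.00777), and RANKL + UD was 0.792 times RANKL (-0.34, SE 0.081, adjusted p = 0.00236), the largest fold change of the 9 in that comparison. RANKL + UD against control gave -0.07 (adjusted p = 0.501).

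The lower level of Twnk with uridine was called under all 14 alternatives, at -0.38 to -0.23. Its higher level with RANKL was called under 11, and on total counts it was 0.18 with an adjusted p of 0.0673. Twnk shares 507 exonic bases on GRCm38, 12.6% of its exons, with Mrpl43 on the opposite strand. Mrpl43, a mitochondrial ribosomal protein gene, did not pass the test in either comparison but had the same sign as Twnk in both. It was at 0.19 (adjusted p = 0.0745) with RANKL and -0.08 (adjusted p = 0.488) with uridine beside RANKL. The part of Mrpl43 reads in the counts of Twnk was not tested.

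Levels of the 9 covered about an order of magnitude per kilobase of exon, and their order differed little between groups. Gabpa came first in each group, and in control it was followed by Tfam at 14.5, Tfb2m at 12.2, Twnk at 8.41 and Esrra at 5.70 TMM-scaled FPKM, each neighbour separated from the next in every library. Polg, Ppargc1b, Polrmt and Nrf1 made up the lower end in control, at 3.43 to 2.93, and neighbours among these overlapped. With RANKL, Tfb2m at 16.2 stood above Tfam at 13.8 without overlap, and Ppargc1b at 5.16 stood above Polg at 3.81 without overlap, while Nrf1 and Polrmt overlapped. With RANKL + UD, Tfam and Tfb2m overlapped, both at 14.1, and Polrmt at 2.73 came just above Nrf1 at 2.59. Between pairs of the 9, Pearson r of the log2 level over the 9 libraries ran from -0.90 for Ppargc1b and Nrf1 to 0.81 for Ppargc1b and Tfb2m, and Tfb2m and Twnk gave 0.70, a description of libraries that share 3 treatments and 1 scaling.

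The other nuclear partners of PGC-1 were mostly lower or not called with RANKL. Of 20 listed partners and upstream regulators, 13 were tested, and 2 were higher and 7 lower in RANKL against control (median log2 fold change -0.23), 2 higher and 3 lower in RANKL + UD against RANKL (0.02). Over all tested genes 27.3% were higher and 30.2% lower with RANKL, and 18.6% higher and 20.2% lower with uridine beside RANKL, shares against which this list and those that follow are to be read. The 7 lower partners were 6 to 10 over the 14 alternatives, with 10 on total counts. Ppard, a fatty-acid-sensing nuclear receptor, fell by 1.38 on the log2 scale with RANKL (edgeR adjusted p = 4.76e-09). Sirt1, a deacetylase that acts on PGC-1 coactivators, rose by 0.56 with RANKL (adjusted p = 6.36e-07) and fell by 0.35 with uridine beside RANKL (adjusted p = 0.000393). Nfe2l1, a stress-response factor that some sources also call NRF1 and that is not the Nrf1 described above, stood at 50.61, 50.83 and 50.08 with RANKL and at 33.71, 34.98 and 33.24 with RANKL + UD, a drop of 0.57 that was the largest in the list (adjusted p = 4.93e-08). The remaining 7, among them Ppara, Esrrb and Esrrg, did not pass the filter.

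Around Polg and Twnk, 12 further genes of mitochondrial DNA replication and nucleoids were all tested, and 2 were higher and 4 lower with RANKL (median -0.03), 1 higher and 1 lower with uridine beside RANKL (0.13). The 6 called with RANKL and the 2 called with uridine were below the 57.6% and 38.8% called over all genes, and on total counts and with limma 3 were higher with uridine. Lonp1, the matrix protease that degrades TFAM, measured 28.49 to 30.32 in control, 64.16 to 65.31 with RANKL and 45.55 to 49.50 with RANKL + UD. It rose by 1.13 with RANKL (edgeR adjusted p = 2.31e-14) and fell by 0.45 with uridine (adjusted p = 2.43e-07), with no overlap among the 3 groups. Polg2, the accessory subunit of the polymerase, fell by 0.98 with RANKL (adjusted p = 2.33e-06) while Polg did not pass the test, and Mgme1, a nuclease that trims replicated ends, fell by 0.45 with RANKL (adjusted p = 0.00175) and rose by 0.53 with uridine (adjusted p = 0.000742).

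Around Tfb2m and Polrmt, 19 of 20 genes of mitochondrial transcription and RNA processing were tested, 7 of them higher and 1 lower with RANKL (median 0.20), and 5 higher and 1 lower with uridine beside RANKL (0.09). These counts too were below 57.6% and 38.8%. In RANKL + UD against control 11 were higher and 0 lower (0.34), with 0 lower at an unadjusted p under 0.05 and 0 lower by DESeq2 or limma. The 11 called were close to the 54.0% called over all genes in that comparison, where 26.7% were higher and 27.3% lower. The processing enzymes Hsd17b10 and Trmt10c, partners in the complex that cuts mitochondrial tRNAs free, rose by 1.31 and 0.87 with RANKL (edgeR adjusted p = 5.72e-13 and 1.75e-10). They were at -0.01 and 0.06 with uridine beside RANKL (adjusted p = 0.89 and 0.497). Prorp, which encodes the cutting subunit of the complex of Hsd17b10 and Trmt10c, was not called with RANKL, at -0.02 (adjusted p = 0.894). Elac2, a processing gene of the same list, was not called either, at 0.12 (adjusted p = 0.205). Fastkd5, an RNA-binding factor for transcripts not flanked by tRNAs, fell by 0.33 with RANKL (adjusted p = 0.0323) and rose by 0.54 with uridine (adjusted p = 0.00181).

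The polymerases need nucleotides inside mitochondria, and uridine is a precursor of the pyrimidine ones. Of 11 listed genes 10 were tested, 5 higher and 2 lower with RANKL (median 0.24), and 2 higher and 5 lower with uridine beside RANKL (-0.24), where 57.6% and 38.8% of all genes were called in either direction. On total counts and with limma at either pseudocount, 3 were lower with uridine in place of 5. Slc25a33, a carrier of pyrimidine nucleotides into mitochondria, measured 4.12 to 4.84 in control, 9.59 to 11.37 with RANKL and 5.13 to 6.76 with RANKL + UD, a rise of 1.22 (edgeR adjusted p = 5.31e-08) and a fall of 0.80 (adjusted p = 3.21e-05) without overlap. Slc25a36, another pyrimidine nucleotide carrier of the list, went the other way with RANKL (log2 fold change -0.35, edgeR adjusted p = 2.59e-05). It was lower again with uridine beside RANKL (-0.21, adjusted p = 0.00744), so the carriers differed in direction with RANKL. Cmpk2, a mitochondrial pyrimidine nucleotide kinase, fell by 2.11 with RANKL (adjusted p = 1.19e-11) and rose by 0.68 with uridine (adjusted p = 0.000694). The salvage kinases Tk2 and Dguok did not pass the test with RANKL (adjusted p = 0.335 and 0.186) and fell by 0.49 and 0.47 with uridine (adjusted p = 0.000334 and 0.00495).

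**Figure D3:**
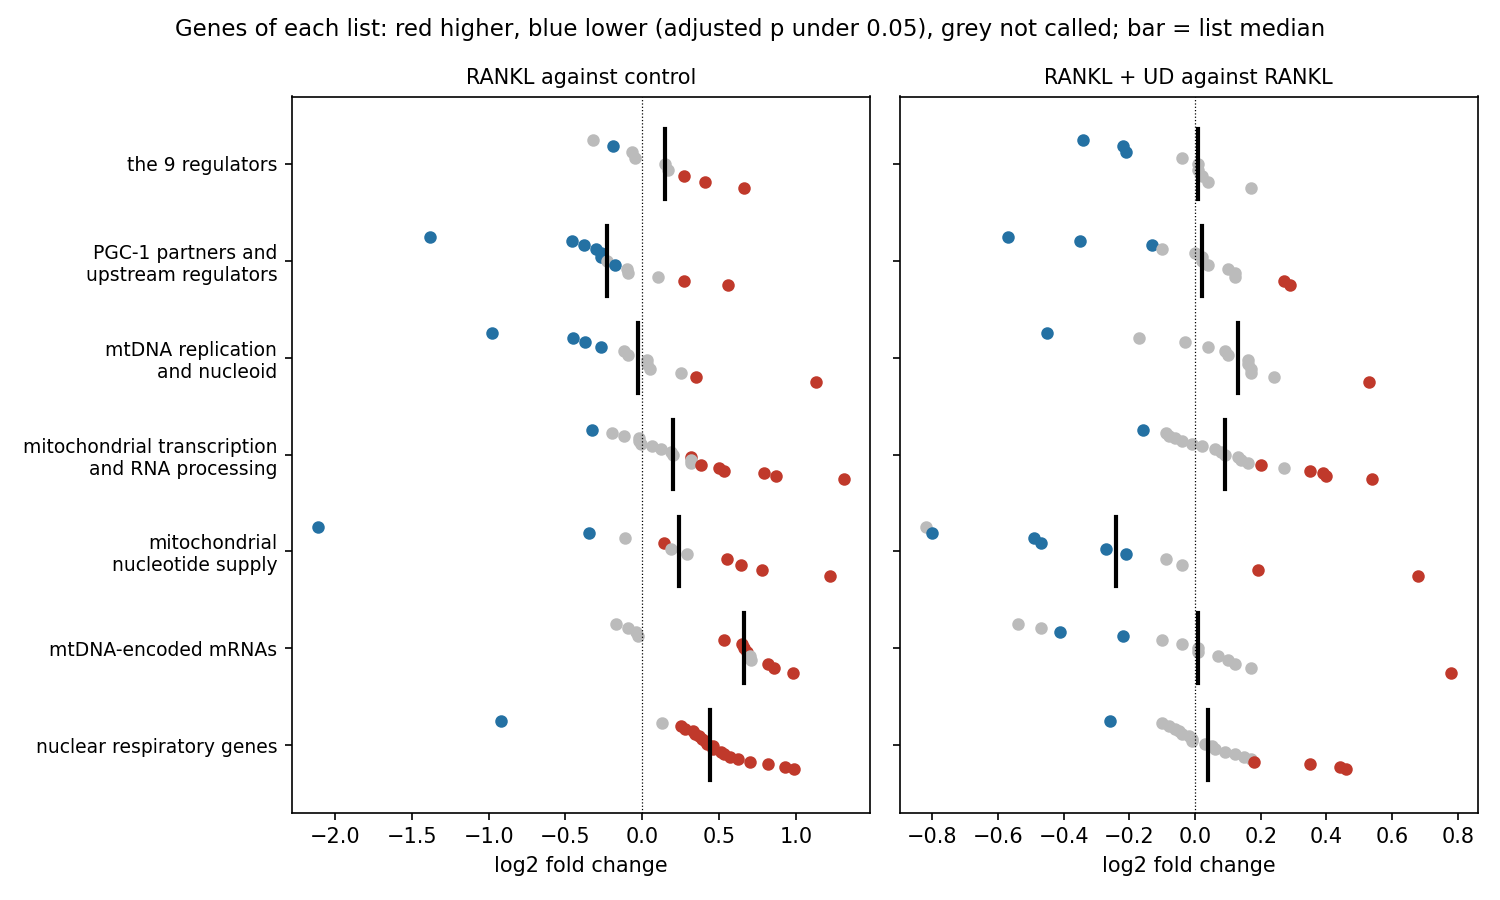
Log2 fold change of every tested gene of the 9 regulators and of 6 lists around them, in RANKL against control and in RANKL + UD against RANKL, on axes of different width. Points are red where higher and blue where lower at an adjusted p under 0.05, grey where not called, and the bar is the list's median, which for nuclear respiratory genes is 0.44 with RANKL and 0.04 with uridine beside RANKL.

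Transcripts of the mitochondrial genome itself, the product of Polrmt, Tfam and Tfb2m, took 3.59% to 3.95% of all counts in control, 4.32% to 4.55% with RANKL and 4.32% to 4.53% with RANKL + UD. Of the 13 mRNAs, 7 were higher and 0 lower with RANKL (median log2 fold change 0.66), with 1 lower at an unadjusted p under 0.05 (mt-Co1), 0 lower by DESeq2 and 1 lower by limma, while with uridine beside RANKL 1 was higher and 2 lower (0.01), each direction running from 0 to 3 over the 14 alternatives. The 7 called with RANKL were close to the 57.6% of all genes called, and the 3 called with uridine were below 38.8%. mt-Nd2, a complex I subunit, rose by 0.98 with RANKL (edgeR adjusted p = 4.92e-12) and was at 0.01 in RANKL + UD against RANKL (adjusted p = 0.904). mt-Co1, a catalytic subunit of complex IV, was at -0.09 with RANKL (adjusted p = 0.0777) and fell by 0.22 with uridine (adjusted p = 0.000342). For 6 of the 13 (mt-Nd3, mt-Nd4l, mt-Co2, mt-Co3, mt-Atp6 and mt-Atp8) the mean level over all libraries was 2.95 to 72.5, against 1429.0 to 12288.8 for the other 7. The mouse nuclear genome holds near-identical copies of mitochondrial sequence, reads of which counting may have assigned in part or dropped. Whether this affected these 6 was not tested, and their values are uncertain. The 6 include mt-Atp6, the 1 higher with uridine, and mt-Co2, 1 of the 2 lower with uridine and 1 of the 7 higher with RANKL. The libraries were poly(A)-selected and the strand setting used in counting is not given. What this does to the counts of all 13, mt-Nd6 among them, was not tested.

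Nuclear respiratory genes known to be controlled by PGC-1, ERR and NRF factors rose with RANKL almost throughout. Of 20, all tested, 18 were higher and 1 lower with RANKL (median log2 fold change 0.44, beside -0.027 for all genes), where 27.3% of all genes were higher and 30.2% lower. In RANKL + UD against control 18 were higher and 1 lower (0.50), where 26.7% of all genes were higher and 27.3% lower. Mdh2, a citric acid cycle enzyme, rose by 0.93 with RANKL (edgeR adjusted p = 1.07e-11). The 1 lower gene was Cpt1a, the entry enzyme of fatty-acid oxidation, which fell by 0.92 with RANKL (adjusted p = 5.02e-11). With uridine beside RANKL 4 were higher and 1 lower (0.04), 5 called of 20 where 38.8% of all genes were called, and with total counts 10 were higher and 0 lower. Cycs, which encodes cytochrome c, measured 30.84 to 41.25 in control, 46.92 to 53.69 with RANKL and 66.03 to 72.48 with RANKL + UD, and rose by 0.44 with uridine (adjusted p = 8.37e-05). With RANKL + UD the regulators Gabpa, Tfb2m and Twnk were below their RANKL levels while Ppargc1b was not called, and 15 of the 20 respiratory genes were not called.

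**Figure D4:**
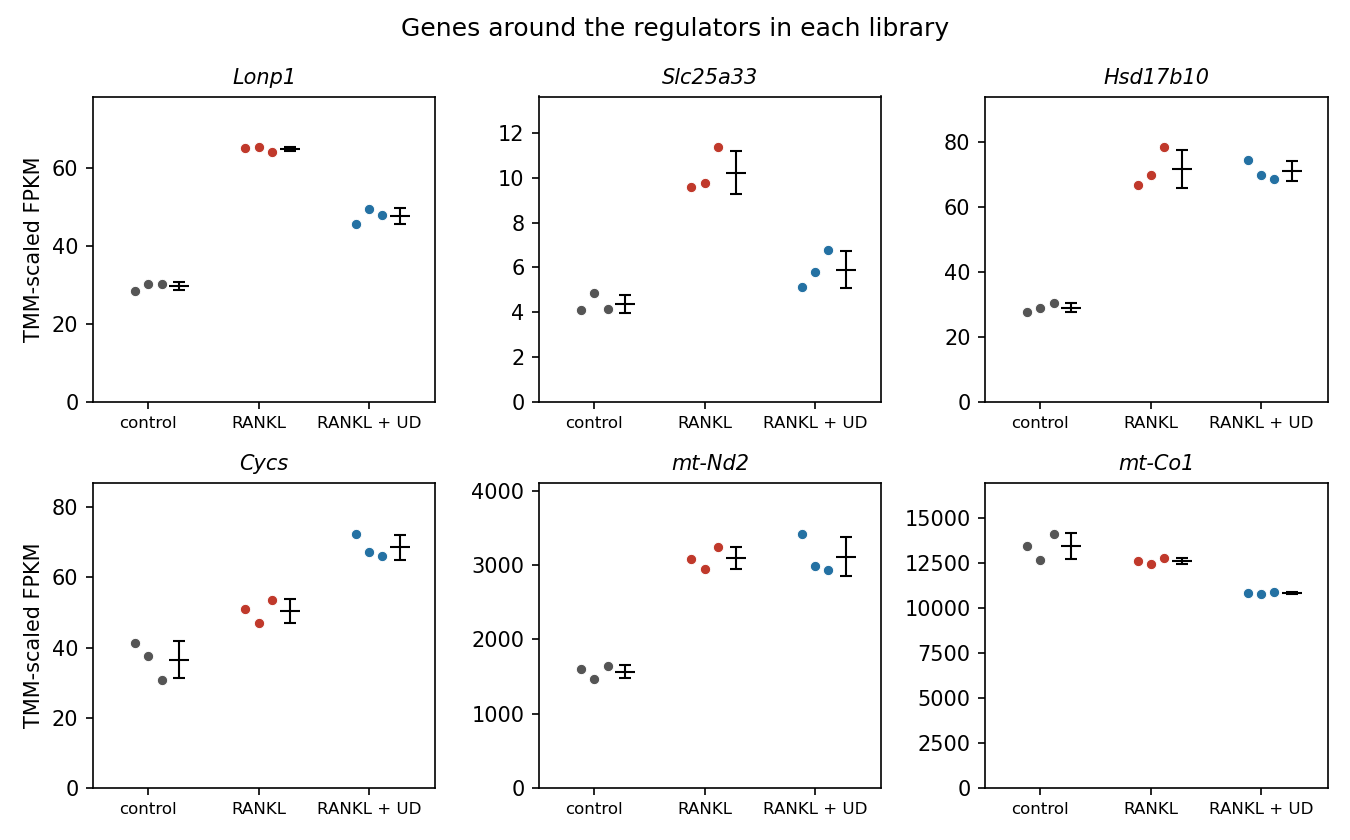
TMM-scaled FPKM of 6 genes around the regulators in each library (points, by group) with the group mean and SD (bars, n = 3), each panel on its own axis starting at 0. Lonp1 and Slc25a33 are highest with RANKL alone and lie between the other groups with RANKL + UD, Hsd17b10 and mt-Nd2 overlap between both groups given RANKL, Cycs is highest and mt-Co1 lowest with RANKL + UD.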

How the data were processed

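RNA-seq was analysed in 9 RAW264.7 libraries, 3 per group, grouped by the labels. The authors deposited, in 1 table, counts per gene (paired-end, poly(A)-selected, strand-marked libraries) and FPKM (counts over exonic length and library total). The FPKM recomputed from the deposited counts and exon lengths agreed for 100% of values within 0.0051. Aligner, counter and its strand setting are not given in the sources used here. The labels name mm10, but only 1435 of 52073 shared genes have identical coordinates in the GRCm38 annotation, so gene positions are as listed in the table with the build unsettled, while promoters are on GRCm38.p6.

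Genes reaching an FPKM of 1 in 3 or more libraries were tested on the counts with edgeR 4.0.16 (TMM, quasi-likelihood, all 9 libraries, no covariate, R 4.3.3), and a gene was called at a Benjamini-Hochberg adjusted p under 0.05. An exact permutation test of 3 against 3 cannot go below 0.1 and was not used. No library pair of a group agreed within sampling noise (chi-square per degree of freedom 2.82 or more). Alternatives were RLE factors, total counts, no filter, DESeq2 1.42.0, limma 3.58.1 on log2(FPKM + 1) and log2(FPKM + 0.1), the 6 libraries alone, a replicate block and each library left out. The fit was tested on simulated data. Named genes were all 9 regulators, up to 4 genes per list and comparison with the largest fold change among called genes without overlap, and the 5 genes most correlated with Ppargc1b (log2 CPM, prior count 2). Genes sharing exons with a regulator, genes below the filter, and list genes in comparisons where the rule did not pick them are also named, chosen after their values were seen. Single values of some listed genes are left out. The regulators and lists were chosen with earlier results of these data known. Counting precision is limited by the depth given above.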

Additional observations from a re-analysis of the deposited data

How the results depend on the processing

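Each of 27 fold changes (9 regulators, 3 comparisons) was recomputed under 14 alternatives, 378 values in all. Of these, 329 kept direction and side of the threshold, 27 lost the call, 5 gained one and 17 changed sign, none of the 17 with a call. For 12 of the 27 no alternative changed the call or the sign. The cause of each change was not tested.

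The count of regulators lower with RANKL, 1 (Nrf1), became 0 with RLE factors, with no filter, with DESeq2 and with the 6 libraries alone, 3 on total counts, and 0 to 1 on leaving out a library. Without control 1 the gene counted was Polrmt, and Nrf1 was not called. The count lower in RANKL + UD against RANKL, 3, became 1 on total counts and with limma at either pseudocount, and 2 to 3 on leaving out a library. In RANKL + UD against control the count higher, 2, ran from 1 to 3 and the count lower, 1, from 1 to 2 on leaving out a library.

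Sign changes lay near 0. In RANKL + UD against RANKL, Esrra was 0.05 on total counts and 0.04 with limma at both pseudocounts, and Nrf1 was -0.0026 with RLE factors and with DESeq2. On leaving out a library in that comparison, Ppargc1b ran from -0.06 to 0.12, Esrra from -0.13 to 0.02, Nrf1 from -0.01 to 0.03 and Polg from -0.03 to 0.08. In RANKL + UD against control, Tfam ran from -0.09 to 0.03 and Polrmt from -0.31 to 0.07.

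Whether replicate numbers pair the libraries was not settled. Same-numbered libraries correlated at -0.022 to 0.149, over 0.1 in 2 of 9 pairs, and 6 of 9 libraries were closest to their own number. A replicate block raised the share of all genes called from 57.6% to 58.7% in RANKL against control. In RANKL + UD against RANKL it went from 38.8% to 40.6%. With the replicate block the count lower with RANKL was 0, Nrf1 reaching an adjusted p of 0.0539, and no other regulator's call changed.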
